A study of Arabidopsis thaliana with 4 samples.

Results

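The NAC family (named after NAM, ATAF and CUC) is one of the large families of plant-specific transcription factors. The members described here are the genes that the deposited family table assigns to NAC, matched by locus to the deposited table of reads per gene. That table lists 60 NAC loci, of which 3 were left out by the rule of selection, so 57 remained. Of these, 45 were in the read table as held and 12 were not analysed here, all of them on chromosome 5, among them CUC2, NAC6 (also called ORE1), NAC100 and XND1. The whole read table held 26784 genes, from chromosomes 1 to 4 and chromosome 5 up to position 3070933. The family table held 1369 genes of all families, of which 1110 were measured.

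A NAC protein binds DNA with a conserved domain at its N-terminal end and carries a variable C-terminal part that activates or represses transcription. Some members end in a transmembrane stretch that keeps the protein on a membrane until it is cut free. In Arabidopsis, members are known for organ boundaries, lateral roots, xylem vessels, the root cap, sieve elements, stress hormones and leaf senescence. The mRNAs of several members are cleaved under guidance of the microRNA miR164.

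The data are RNA-seq libraries of whole wild-type seedlings of Arabidopsis thaliana, accession Col-0, 2 from seedlings 6 days post germination (dpg) and 2 from seedlings 2 dpg. The labels name no transgene or mutation. The seedlings grew at 22 °C in a 12-h photoperiod on plates of Murashige and Skoog medium at reduced strength with 0.5% sucrose. The question of the study was which transcription factors change during the first days of seedling life. No label says that the libraries come from separate plantings, so p-values reflect how these libraries scatter, and that scatter may be technical. The hour of harvest is not given in the labels, so age and hour of the day cannot be told apart.

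Reads on the genes held numbered 18336468 and 14845619 at 6 dpg and 21217252 and 16478848 at 2 dpg. The library totals behind them were 18330153 to 26570983 reads, at which 3 reads correspond to 0.113 to 0.164 CPM (reads scaled to library size). Libraries of the same age correlated at 0.990 at 6 dpg and 0.988 at 2 dpg (Pearson, log CPM across genes, which are not independent replicates). The summed level of 4 leaf genes, of the light-harvesting complexes and the small subunit of Rubisco, was 29040 and 28374 CPM at 6 dpg and 56499.5 and 52047 CPM at 2 dpg. The 7 seed storage genes together had 0.166 and 0.409 CPM at 6 dpg and 1.31 and 6.38 CPM at 2 dpg, most of it in 2 dpg replicate 2. In whole seedlings, fewer cells of a type and less RNA per cell cannot be told apart.

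More of the NAC members described here were higher than lower at 6 dpg. Of 45 measured members, 42 passed the filter on low counts and were tested with edgeR's quasi-likelihood test. At an adjusted p under 0.05 (Benjamini-Hochberg over all 16160 genes tested), 19 members rose, 8 fell and 15 were not called. The members called made up 64.3% of those tested, against 56.6% of all tested genes. Members that rose were 45.2% of those tested, against 28.3% of all tested genes, while 8 of 42 members fell, against 28.4% of all tested genes. Among the 1080 tested genes of all families in the family table, 48.1% rose and 19.7% fell, shares close to those of the NAC members. The median log2 fold change, 6 dpg over 2 dpg, was 0.36 over the tested members, 0.39 over the family table and -0.0011 over all tested genes, and the median of the members was above 0 under every scaling tried.

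At least 2-fold changes were called for 15 members, 8 of them higher and 7 lower at 6 dpg, against 11.6% and 12.5% of all tested genes. Both 6 dpg libraries lay above both 2 dpg libraries for 24 tested members and below them for 12, while the libraries of 6 members overlapped. The same held for 40.4% and 40.2% of all tested genes. The count of members that fell was 5 instead of 8 without 6 dpg replicate 1, and also 5 when libraries were scaled on ribosomal protein genes. By the adjusted p of the authors' deposited table, 22 members passed 0.05, 15 of them higher and 7 lower at 6 dpg. Of the 22473 genes with such a value 32.8% did, a set that includes genes removed here by the filter on low counts. All 22 were also called here, and ANAC013, NAC050, ORS1, ATAF2 and NAC045 were called here only.

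**Figure D1:**
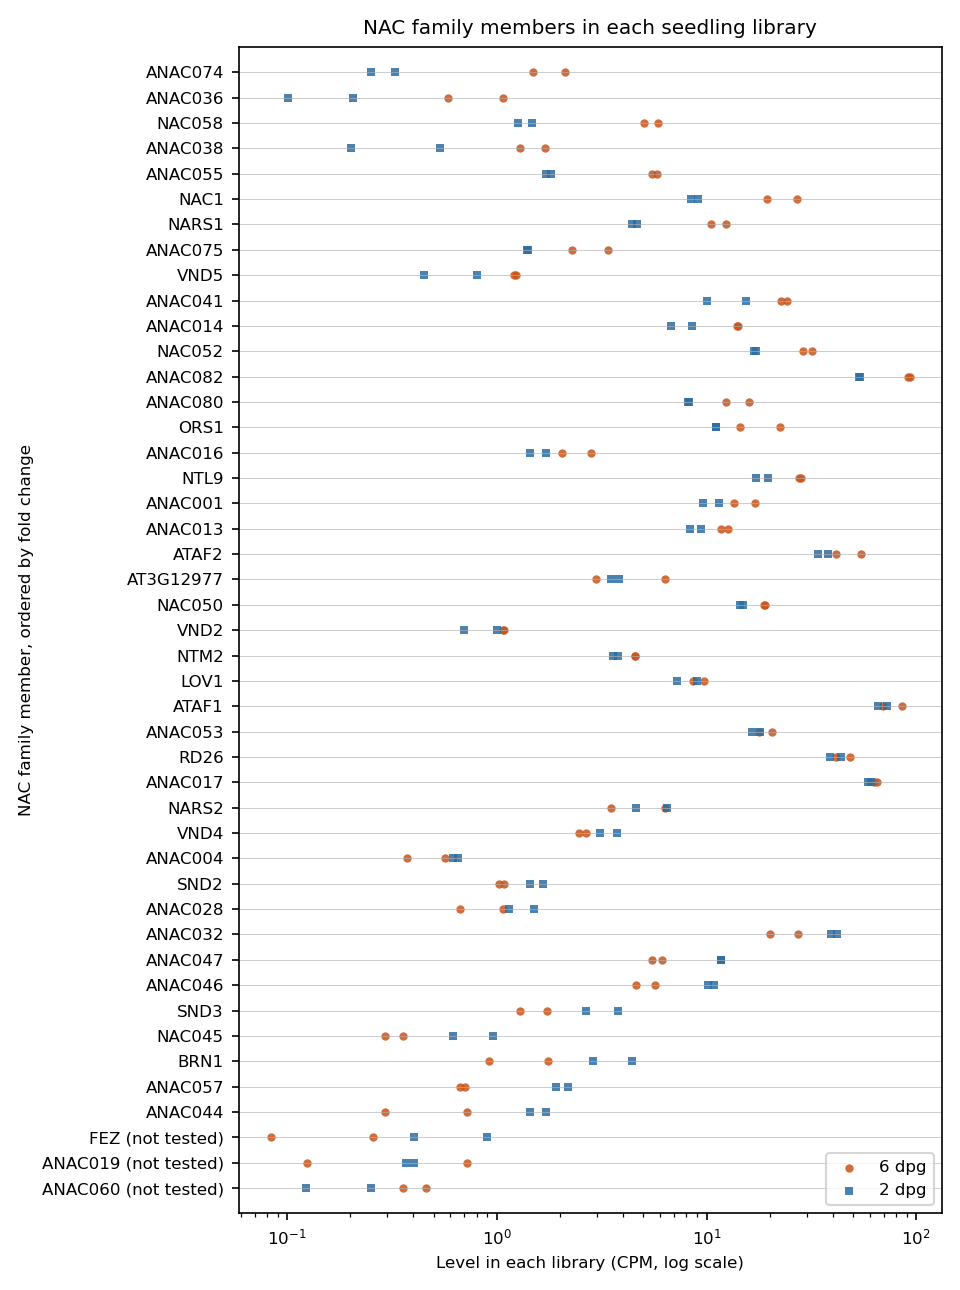
Level of each of the 45 measured NAC members in each library, in CPM on a log axis, with 6 dpg libraries as circles and 2 dpg libraries as squares; members run from the largest rise at the top to the largest fall, with the 3 untested members at the bottom. The levels span 0.0832 to 93.3 CPM, and the libraries of the 2 ages stand apart at the top and at the bottom of the order.

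**Figure D2:**
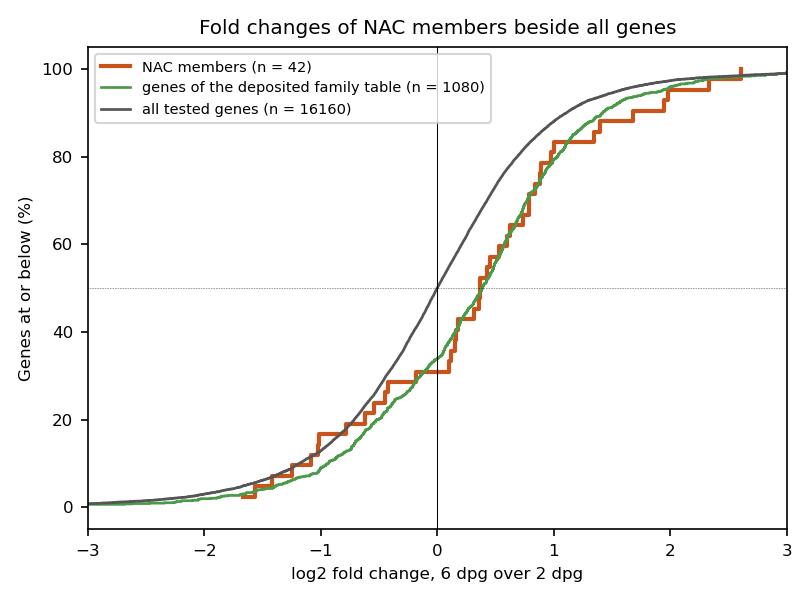
Cumulative share of genes in percent against the log2 fold change, 6 dpg over 2 dpg, for 42 tested NAC members, 1080 genes of the family table and 16160 genes in all. The curves of the NAC members and of the family table lie to the right of the curve of all genes, with medians of 0.36, 0.39 and -0.0011.

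Levels of different members can be compared only per length. In the FPKM of the authors' deposited table, which scale fragments by gene length and library size, ATAF1 had the highest mean level over the 4 libraries, with 62.5 ± 9.87 FPKM at 6 dpg and 49.5 ± 1.79 FPKM at 2 dpg (SD, n = 2 each). ATAF2 had 41.4 ± 8.33 FPKM at 6 dpg and 27.4 ± 3.22 FPKM at 2 dpg, and ANAC082 had 46.5 ± 0.902 FPKM at 6 dpg and 23.9 ± 0.899 FPKM at 2 dpg in the authors' deposited table (SD, n = 2 each). The difference between these 2 genes was within the spread of ATAF2 at 6 dpg. The ANAC082 values do not follow its deposited length of 2197 bases. By that length it would have 44.7 ± 0.868 FPKM at 6 dpg and 23.0 ± 0.865 FPKM at 2 dpg (SD, n = 2 each). Its mean over the 4 libraries lay above that of ATAF2 by the authors' FPKM and below it by the deposited length. RD26 had 39.7 ± 4.03 FPKM at 6 dpg and 32.6 ± 3.81 FPKM at 2 dpg in the authors' deposited table (SD, n = 2 each), but these values do not follow the deposited length of 1718 bases. From its counts and that length, RD26 would have 27.6 ± 2.8 FPKM at 6 dpg and 22.6 ± 2.65 FPKM at 2 dpg (SD, n = 2 each), so its place by the mean over the 4 libraries depends on which length holds: next after ATAF1 by the authors' FPKM, and below ATAF2, ANAC082, ANAC017 and ANAC032 by the deposited length. ANAC032 had 22.5 ± 4.96 FPKM at 6 dpg and 34.2 ± 0.365 FPKM at 2 dpg in the authors' deposited table (SD, n = 2 each). Over all genes with over 200 reads, 66.7 to 67.8% gave the same library total within 0.01% from count, FPKM and deposited length, and of 21 members with that many reads in a library, 10 followed the deposited length within this tolerance.

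Of the 4 tested growth and organ NACs, 3 rose, none fell and 1 was not called, where 28.3% of all tested genes rose. NAC1, which acts downstream of auxin in lateral root formation, had 26.9 and 19.3 CPM at 6 dpg and 8.44 and 9.15 CPM at 2 dpg. Both older libraries exceeded both younger ones, and NAC1 rose by a log2 fold change of 1.40 ± 0.18 (SE, n = 2 each, edgeR adjusted p = 0.000231). ANAC080 had 15.9 and 12.4 CPM at 6 dpg and 8.19 and 8.24 CPM at 2 dpg, again without overlap (log2 fold change 0.78 ± 0.16, edgeR adjusted p = 0.0033). NAC058, which is counted on this list although no role of it is described here, had 5.03 and 5.89 CPM at 6 dpg and 1.47 and 1.26 CPM at 2 dpg. It rose 3.96-fold (log2 fold change 1.98 ± 0.24, edgeR adjusted p = 0.000175). LOV1, a repressor of flowering, had 8.65 and 9.72 CPM at 6 dpg and 7.25 and 9.05 CPM at 2 dpg, which overlap, and was not called (edgeR adjusted p = 0.406).

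NAC1 and ANAC080 are targets of miR164. The mature miRNA and the matching stretches in the 3 measured members with at most 4 mismatches are shown because miR164 pairs with the mRNA itself. The miRNA, from RefSeq (assembly TAIR10.1, chr2:19520770-19520790, plus strand), has its seed in capitals. In the sites, all in the last of 3 exons and inside the coding sequence, capitals mark bases equal to the perfect complement of the miRNA. All other bases are in lower case and counted as mismatches, also where a G of the miRNA faces a U of the mRNA. The end that faces the seed is on the right.
ath-miR164a: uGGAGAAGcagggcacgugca
NAC1 (chr1:20947142-20947162, minus strand): aGCACGTaCCCTGCTTCTCCA
ANAC080 (chr5:2436958-2436978, plus strand): TttACGTGCCCTGCTTCTCCA
AT3G12977 (chr3:4145631-4145651, plus strand): aGCAtGTaCCCTGCTTCTCCA

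NAC1 and ANAC080 had 2 mismatches each to miR164a and AT3G12977 had 3, while the next closest measured member, ORS1, had 6. Sites with 2 to 4 mismatches were also found in NAC100, CUC2 and NAC6, which were not measured. AT3G12977, picked for its site after its values were seen, had 6.37 and 2.97 CPM at 6 dpg and 3.81 and 3.52 CPM at 2 dpg. The 6 dpg libraries enclosed the 2 dpg ones, and it was not called (log2 fold change 0.37 ± 0.32, edgeR adjusted p = 0.36), with a log2 fold change of -0.30 without 6 dpg replicate 1 and 0.80, past the threshold, without 6 dpg replicate 2. Of the miR164 precursor genes in the table, MIR164a had no read in any library, and MIR164b had 10 and 3 reads at 6 dpg and 2 and 0 at 2 dpg. The mature miRNA was not measured here.

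The ATAF and stress or senescence NACs moved in both directions: of 9 tested members, 4 rose, 3 fell and 2 were not called. Called members made up 77.8% of them, against 56.6% of all tested genes. ANAC055, a factor of abscisic acid and jasmonate responses, had 5.49 and 5.78 CPM at 6 dpg and 1.8 and 1.71 CPM at 2 dpg. The ages did not overlap, and ANAC055 rose 3.20-fold (log2 fold change 1.68 ± 0.21, edgeR adjusted p = 0.000246). RD26, a close relative that acts in the same hormone responses, had 48.1 and 41.3 CPM at 6 dpg and 38.8 and 43.6 CPM at 2 dpg. Its libraries overlapped and it was not called (log2 fold change 0.12 ± 0.13, edgeR adjusted p = 0.459). The other member of this trio, ANAC019, had 3 and 14 reads at 6 dpg and 9 and 8 reads at 2 dpg and did not pass the filter.

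ANAC036, whose overexpression dwarfs the plant, had 0.583 and 1.07 CPM at 6 dpg and 0.205 and 0.101 CPM at 2 dpg. It rose on few reads, 35 at 6 dpg and 7 at 2 dpg (log2 fold change 2.33 ± 0.59, edgeR adjusted p = 0.00905). ORS1, a promoter of leaf senescence, had 22.3 and 14.5 CPM at 6 dpg and 11.1 CPM in both 2 dpg libraries (log2 fold change 0.74 ± 0.20, edgeR adjusted p = 0.0114). ATAF2, known from wounding and light responses, had 41.5 and 54.8 CPM at 6 dpg and 33.8 and 37.9 CPM at 2 dpg. It rose least of the called genes on this list (log2 fold change 0.42 ± 0.15, edgeR adjusted p = 0.0415), and another gene overlaps 11.2% of its span. None of these 3 calls held under every removal of 1 library, which leaves only 1 library of that age. The log2 fold change of ORS1 was 0.39 without 6 dpg replicate 1, that of ATAF2 was 0.22 without 6 dpg replicate 2 and 0.34 without 2 dpg replicate 1, and that of ANAC036 was 1.86 without 6 dpg replicate 2 and 1.96 without 2 dpg replicate 2, none of them past the threshold.

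The 3 members that fell on this list were ANAC032, ANAC046 and ANAC047. ANAC032, a stress factor that represses anthocyanin synthesis, had 20.1 and 27.2 CPM at 6 dpg and 41.9 and 39.2 CPM at 2 dpg (log2 fold change -0.78 ± 0.16, edgeR adjusted p = 0.00268). Scaled on ribosomal protein genes, its log2 fold change was -0.48 and the call was lost. ANAC046, which promotes chlorophyll breakdown and cell death in the root cap, had 5.70 and 4.61 CPM at 6 dpg and 10.9 and 10.1 CPM at 2 dpg. ANAC047, known from the upward bending of petioles under waterlogging, had 6.12 and 5.48 CPM at 6 dpg and 11.7 and 11.8 CPM at 2 dpg. Both were lower in each 6 dpg library than in each 2 dpg library, ANAC046 by a log2 fold change of -1.02 ± 0.17 (edgeR adjusted p = 0.00115) and ANAC047 by -1.01 ± 0.15 (edgeR adjusted p = 0.000644). ATAF1, a regulator of stress and senescence, had 69.2 and 85.8 CPM at 6 dpg and 72.7 and 65.6 CPM at 2 dpg, which overlap (edgeR adjusted p = 0.338).

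**Figure D3:**
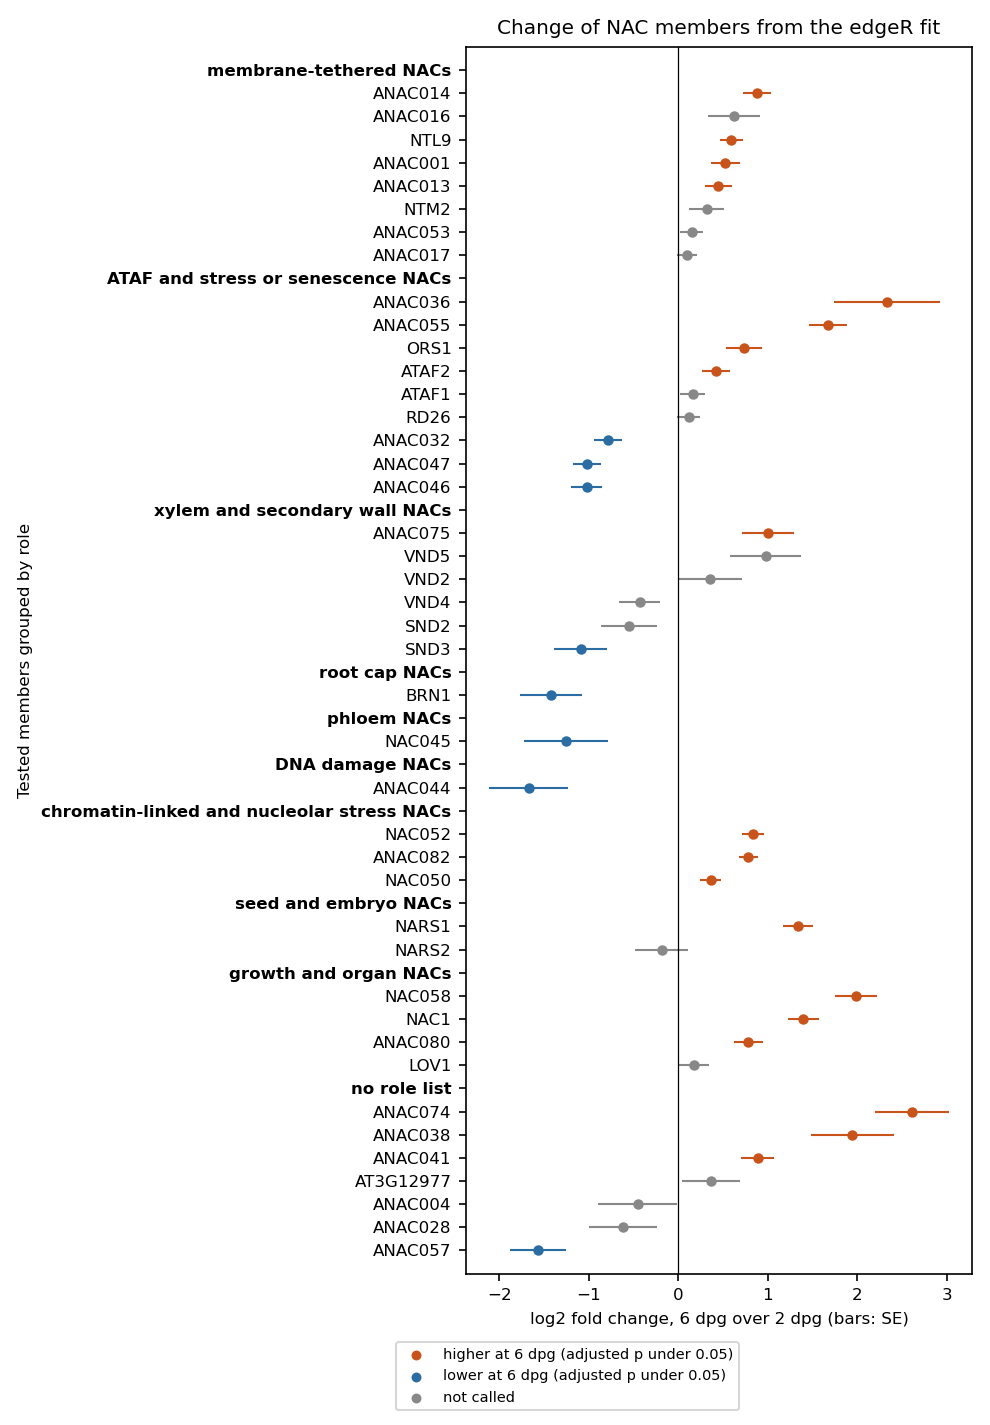
Log2 fold change, 6 dpg over 2 dpg, of the 42 tested NAC members from the edgeR fit, grouped by role, with SE as bars; colours mark members higher, lower or not called at 6 dpg. The membrane-tethered, the chromatin-linked and the growth members lie at or above 0, and the root cap, phloem and DNA damage members below it.

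The membrane-tethered NACs rose or were not called: of 8 tested, 4 rose, none fell and 4 were not called. The share called was 50.0%, against 56.6% of all tested genes, of which 28.3% rose and 28.4% fell. ANAC014 had 13.9 and 14.1 CPM at 6 dpg and 6.80 and 8.49 CPM at 2 dpg (log2 fold change 0.88 ± 0.16, edgeR adjusted p = 0.00155). NTL9, a calmodulin-binding factor, had 28 and 27.6 CPM at 6 dpg and 17.2 and 19.7 CPM at 2 dpg (log2 fold change 0.60 ± 0.13, edgeR adjusted p = 0.00345). For both, the 6 dpg libraries lay close together and above the 2 dpg ones. ANAC001 had 13.5 and 16.9 CPM at 6 dpg and 9.63 and 11.5 CPM at 2 dpg (log2 fold change 0.53 ± 0.16, edgeR adjusted p = 0.0223). Its call was lost without 6 dpg replicate 2, at 0.36, and without 2 dpg replicate 1, at 0.40.

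ANAC013 and ANAC017 carry signals from disturbed mitochondria to the nucleus. ANAC013 had 11.7 and 12.6 CPM at 6 dpg and 8.36 and 9.40 CPM at 2 dpg (log2 fold change 0.45 ± 0.15, edgeR adjusted p = 0.0278). ANAC017 had 63.2 and 64.9 CPM at 6 dpg and 60.6 and 58.6 CPM at 2 dpg (log2 fold change 0.10 ± 0.11, edgeR adjusted p = 0.453). The ages did not overlap for either gene, but only ANAC013 was called, and its call was lost without 6 dpg replicate 1, at 0.51, without 6 dpg replicate 2, at 0.40, without 2 dpg replicate 1, at 0.37, and in the DESeq2 Wald test, at 0.45 (adjusted p = 0.0962). The fold change of ANAC017 was -0.023 after removal of the trend with gene length. Whether ANAC013 and ANAC017 differ in their change was not tested.

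ANAC016, a factor of drought response and senescence, had 2.04 and 2.81 CPM at 6 dpg and 1.43 and 1.71 CPM at 2 dpg and was not called (log2 fold change 0.62 ± 0.29, edgeR adjusted p = 0.0947), but it passed the threshold at 0.92 under scaling on ribosomal protein genes. NTM2, which links salt to auxin during germination, had 4.58 and 4.55 CPM at 6 dpg and 3.56 and 3.77 CPM at 2 dpg (log2 fold change 0.32 ± 0.19, edgeR adjusted p = 0.191). ANAC053, a regulator of proteasome genes, had 17.8 and 20.6 CPM at 6 dpg and 16.5 and 18.0 CPM at 2 dpg (log2 fold change 0.15 ± 0.13, edgeR adjusted p = 0.355). The libraries stood apart for ANAC016 and NTM2 and overlapped for ANAC053. ANAC060, a factor of sugar and abscisic acid signalling, had 11 and 7 reads at 6 dpg and 3 and 5 reads at 2 dpg and was not tested.

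A hydrophobic tail was also looked for in the proteins themselves, with the RefSeq sequences (TAIR10.1). A stretch of 19 residues with a mean Kyte-Doolittle hydrophobicity of 1.6 or more within the last 60 residues was found in 9 of 45 measured members. They were ANAC001, ANAC013, ANAC014, ANAC016, ANAC017, ANAC028, ANAC053, ANAC060 and NTM2, and the protein of NTL9 used here had none. Only the longest coding sequence of each locus was translated, so any other protein forms, of NTL9 or another member, were not looked at. Of 8 tested members with such a tail, 3 rose and none fell, and of 34 without it, 16 rose and 8 fell. The shares called were 37.5% and 70.6%, against 56.6% of all tested genes, of which 28.3% rose and 28.4% fell. Among the tail members not called, ANAC028 was lower in each 6 dpg library (log2 fold change -0.62). The median log2 fold changes were 0.38 with the tail and 0.36 without it. The 8 tested tail members had a median deposited length of 2021 bases, against 1359.5 bases for the 34 tested members without the tail. ANAC060, the tail member that was not tested, has 1172 bases.

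The 3 tested chromatin-linked and nucleolar stress NACs all rose, where 28.3% of all tested genes rose. ANAC082, which acts when ribosome synthesis is disturbed, had 91.6 and 93.3 CPM at 6 dpg and 53.5 and 53.7 CPM at 2 dpg. The spread within an age was small beside the difference, and ANAC082 rose 1.73-fold (log2 fold change 0.79 ± 0.11, edgeR adjusted p = 0.000427). NAC052 and NAC050, partners of the histone demethylase JMJ14, are neighbours on chromosome 3. NAC052 had 28.8 and 32.0 CPM at 6 dpg and 17.1 and 16.9 CPM at 2 dpg (log2 fold change 0.84 ± 0.12, edgeR adjusted p = 0.000502). NAC050 had 18.9 and 18.7 CPM at 6 dpg and 14.9 and 14.4 CPM at 2 dpg (log2 fold change 0.36 ± 0.12, edgeR adjusted p = 0.0309). The NAC050 call was lost without 6 dpg replicate 1, at 0.36, without 6 dpg replicate 2, at 0.38, in the DESeq2 Wald test, at 0.36 (adjusted p = 0.117), and with the replicate number as a block, at 0.36 (edgeR adjusted p = 0.0501). Their proteins are 84.3% identical and the longest run their transcripts share is 59 bases, so reads may be split between them, which makes the values of both uncertain.

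The xylem and secondary wall NACs showed no common direction, with 1 of 6 tested members higher, 1 lower and 4 not called. Called members made up 33.3% of them, against 56.6% of all tested genes. ANAC075, which acts upstream of the vessel factors, had 2.29 and 3.38 CPM at 6 dpg and 1.39 and 1.41 CPM at 2 dpg (log2 fold change 1.00 ± 0.29, edgeR adjusted p = 0.0172). The call was lost without 6 dpg replicate 2, at 0.71, and without either 2 dpg replicate, at 1.00 in both cases, and in the DESeq2 Wald test, at 1.01 (adjusted p = 0.057). SND3, a secondary wall factor, had 1.29 and 1.74 CPM at 6 dpg and 2.66 and 3.77 CPM at 2 dpg (log2 fold change -1.09 ± 0.30, edgeR adjusted p = 0.0123). That call was lost without 6 dpg replicate 1, at -0.87, without 2 dpg replicate 2, at -0.83, and under scaling on ribosomal protein genes, at -0.81.

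The vessel factors VND2, VND4 and VND5 and the wall factor SND2 were expressed at 4 CPM or less in each library and were not called. VND5 had 1.21 and 1.23 CPM at 6 dpg and 0.451 and 0.804 CPM at 2 dpg (log2 fold change 0.98 ± 0.40, edgeR adjusted p = 0.0615). VND2 had 1.08 and 1.07 CPM at 6 dpg and 0.696 and 1.01 CPM at 2 dpg (edgeR adjusted p = 0.425). VND5 passed the threshold under length-adjusted offsets, at 1.08, and under scaling on ribosomal protein genes, at 1.26. VND4 had 2.45 and 2.66 CPM at 6 dpg and 3.73 and 3.12 CPM at 2 dpg (edgeR adjusted p = 0.141). SND2 had 1.08 and 1.02 CPM at 6 dpg and 1.43 and 1.66 CPM at 2 dpg (edgeR adjusted p = 0.163). The libraries stood apart for all 4 genes, higher at 6 dpg for the first pair and lower for the VND4 and SND2 pair.

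The tested root cap, phloem and DNA damage members, 1 of each, were lower at 6 dpg, where 28.4% of all tested genes fell. BRN1, which drives maturation of the root cap, had 1.75 and 0.921 CPM at 6 dpg and 4.38 and 2.86 CPM at 2 dpg. The ages did not overlap, and BRN1 fell (log2 fold change -1.42 ± 0.35, edgeR adjusted p = 0.00759), a call lost without 2 dpg replicate 1, at -1.07. FEZ, which promotes divisions of root cap stem cells, had 2 and 5 reads at 6 dpg and 22 and 8 reads at 2 dpg and was not tested. NAC045, a factor of sieve elements that directs the loss of their nuclei, had 0.291 and 0.358 CPM at 6 dpg and 0.614 and 0.955 CPM at 2 dpg. Its call rested on 14 reads at 6 dpg and 34 at 2 dpg (log2 fold change -1.25 ± 0.47, edgeR adjusted p = 0.0481). It held under only 2 of the 12 alternatives and under no removal of a library, with fold changes between -0.93 and -1.55 then.

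ANAC044, which halts cell division after DNA damage and is a target of the NAC factor SOG1, fell most of all tested members. It had 0.291 and 0.716 CPM at 6 dpg and 1.43 and 1.71 CPM at 2 dpg, or 21 reads at 6 dpg and 69 at 2 dpg. The ages did not overlap (log2 fold change -1.67 ± 0.44, edgeR adjusted p = 0.0108). Without 6 dpg replicate 1 the log2 fold change was -1.12 and the call was lost, and without 6 dpg replicate 2 it was -2.40. The 250 bases before its annotated start (RefSeq, TAIR10.1, chr3:228825-229074, plus strand) are given as those of the member that fell most. Capitals mark the auxin response element TGTCTC and, further on, the SOG1 motif, CTT and AAG with 7 bases between them. The same stretch also reads as the mitochondrial dysfunction motif, CTTG and CAAG with 5 bases between them, to which ANAC013 and ANAC017 bind.
ANAC044: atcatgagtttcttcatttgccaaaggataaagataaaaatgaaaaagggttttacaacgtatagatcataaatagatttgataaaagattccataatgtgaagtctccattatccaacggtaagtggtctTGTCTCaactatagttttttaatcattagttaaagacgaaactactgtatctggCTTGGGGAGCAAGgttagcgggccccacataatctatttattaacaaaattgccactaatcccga

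All motifs were searched on both strands, and every match to the CTTG and CAAG form of the mitochondrial dysfunction motif is also one to the SOG1 motif. In windows of the same length, the SOG1 motif was found in 9 of 45 measured members and in 9.71% of 27443 coding genes. It occurred in ANAC044, NAC045 and ANAC046, which fell, in ANAC013, NARS1 and NAC058, which rose, and in NTM2, RD26 and SND2, which were not called. The CTTG and CAAG form of the mitochondrial dysfunction motif was found in ANAC044 and NAC045 and in 0.740% of coding genes. Its other form, CTTG and CACG with 5 bases between them, was found in SND3, which fell, and ANAC017, which was not called, and in 0.466% of coding genes. TGTCTC was found in 4 of 45 measured members (8.89%), ANAC038, ANAC044, ANAC046 and ANAC074, and in 10.9% of coding genes. Also searched were the G-box CACGTG (5 of 45 members, 6.49% of coding genes) and the ABRE core ACGTGG (6 of 45, 8.23%). The evening element AAATATCT was found in 2 of 45 members and 4.79% of coding genes. Of the W-box forms, TTGACT was in 1 of 45 members and 19.1% of coding genes. TTGACC was in 3 of 45 members, BRN1, ANAC032 and ANAC057, which fell, and in 12.2% of coding genes. A match describes letters in this window and shows neither binding nor a cause.

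Among the seed and embryo NACs, NARS1 and NARS2 are both known from seed coat and embryo development. NARS1 had 12.4 and 10.5 CPM at 6 dpg and 4.38 and 4.67 CPM at 2 dpg. The ages stood well apart, and NARS1 rose 2.53-fold (log2 fold change 1.34 ± 0.17, edgeR adjusted p = 0.000235). NARS2 had 3.50 and 6.35 CPM at 6 dpg and 4.63 and 6.48 CPM at 2 dpg, which overlap, and was not called (log2 fold change -0.18 ± 0.29, edgeR adjusted p = 0.616). Its sign depended on single libraries, with 0.20 without 6 dpg replicate 1 and 0.065 without 2 dpg replicate 2.

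Of the 7 tested members on no role list, 3 rose and 1 fell, with 57.1% called beside 56.6% of all tested genes. ANAC074 rose most of all tested members, with 2.12 and 1.48 CPM at 6 dpg and 0.328 and 0.251 CPM at 2 dpg. The older libraries held 80 reads and the younger ones 13, a 6.11-fold rise (log2 fold change 2.61 ± 0.42, edgeR adjusted p = 0.000825). ANAC038 had 1.29 and 1.69 CPM at 6 dpg and 0.533 and 0.201 CPM at 2 dpg (log2 fold change 1.95 ± 0.46, edgeR adjusted p = 0.00652), and 2.85 without 2 dpg replicate 1. ANAC041 had 24.1 and 22.7 CPM at 6 dpg and 10.1 and 15.3 CPM at 2 dpg (log2 fold change 0.89 ± 0.19, edgeR adjusted p = 0.00341). In each of the 3 the ages did not overlap. ANAC057 fell, with 0.707 and 0.665 CPM at 6 dpg and 2.17 and 1.91 CPM at 2 dpg (log2 fold change -1.56 ± 0.32, edgeR adjusted p = 0.00295). The others were not called: besides AT3G12977, they were ANAC004 and ANAC028, both lower in each 6 dpg library. ANAC004 had 0.374 and 0.563 CPM at 6 dpg and 0.614 and 0.653 CPM at 2 dpg (edgeR adjusted p = 0.408). ANAC028 had 0.666 and 1.07 CPM at 6 dpg and 1.15 and 1.51 CPM at 2 dpg (edgeR adjusted p = 0.191).

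The 250 bases before the annotated start of ANAC074 (RefSeq, TAIR10.1, chr4:14094903-14095152, minus strand) are given as those of the member that rose most. Capitals mark the auxin response element, read as GAGACA on this strand.
ANAC074: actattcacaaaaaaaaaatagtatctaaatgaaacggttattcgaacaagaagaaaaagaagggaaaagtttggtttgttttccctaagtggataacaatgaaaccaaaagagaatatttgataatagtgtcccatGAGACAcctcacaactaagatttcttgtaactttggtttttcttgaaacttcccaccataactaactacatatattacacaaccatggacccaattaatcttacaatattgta

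The read table held 28 further NAC domain genes that the family table does not list under the rule, and 11 of them were tested. SOG1, the central regulator of the DNA damage response, had 10.5 and 9.98 CPM at 6 dpg and 7.70 and 7.34 CPM at 2 dpg (log2 fold change 0.44 ± 0.15, edgeR adjusted p = 0.0308). JUB1, which delays senescence, had 0.915 and 3.17 CPM at 6 dpg and 0.451 and 0.452 CPM at 2 dpg (log2 fold change 2.13 ± 0.61, edgeR adjusted p = 0.0151). The other 9 were not called, among them the root cap factors SMB and BRN2 and the vessel factor VND1. The share called among the 11 was 18.2%, against 64.3% of the tested members and 56.6% of all tested genes. The filter on low counts removed 17 of the 28 genes and 3 of the 45 members, so the 2 sets differ in level. Their median log2 fold change was -0.071, against 0.36 for the members. The JUB1 call was lost without 6 dpg replicate 2, at 1.02, and without 2 dpg replicate 1, at 2.14. The SOG1 call was lost without 6 dpg replicate 1, at 0.41, without 6 dpg replicate 2, at 0.48, without 2 dpg replicate 2, at 0.40, and in the DESeq2 Wald test, at 0.44 (adjusted p = 0.121).

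Genes outside the family that act downstream of NAC factors, or that mark the cells they act in, were counted from 9 lists. Of 46 tested, 6 rose and 21 fell, against 28.3% and 28.4% of all tested genes, and under scaling on ribosomal protein genes 12 fell. The share called, 58.7%, is close to the 56.6% of all tested genes. All 5 proteasome genes, of the kind that ANAC053 and ANAC078 control, fell. The largest fall among them was that of PBA1, a subunit of the core particle, with 56.2 and 62.8 CPM at 6 dpg and 127 and 99.9 CPM at 2 dpg (log2 fold change -0.93 ± 0.14, edgeR adjusted p = 0.000698). ANAC053 and ANAC078 themselves were not called, ANAC078 with 60.4 and 66.3 CPM at 6 dpg and 57.9 and 53.0 CPM at 2 dpg.

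Of 8 tested genes of the mitochondrial retrograde response, 2 rose, 1 fell and 5 were not called. Called genes made up 37.5% of them, beside 56.6% of all tested genes. OM66, an ATPase of the outer mitochondrial membrane, had 6.70 and 11.0 CPM at 6 dpg and 2.79 and 4.12 CPM at 2 dpg (log2 fold change 1.36 ± 0.28, edgeR adjusted p = 0.0033). AOX1A, the alternative oxidase that ANAC013 and ANAC017 are known to induce, had 24.9 and 38.9 CPM at 6 dpg and 37.7 and 30.4 CPM at 2 dpg. Its libraries overlapped, it was not called (log2 fold change -0.098 ± 0.20, edgeR adjusted p = 0.704), and the sign turned without single libraries, to 0.20 without 6 dpg replicate 1 and 0.069 without 2 dpg replicate 1. The gene that fell, AT2G32020, had 4.33 and 5.78 CPM at 6 dpg and 7.21 and 8.54 CPM at 2 dpg (log2 fold change -0.64 ± 0.20, edgeR adjusted p = 0.0228). Its call was lost under length-adjusted offsets and scaling on ribosomal protein genes, at -0.35 in both, without 6 dpg replicate 1, at -0.44, without 2 dpg replicate 2, at -0.53, and in the DESeq2 Wald test, at -0.64 (adjusted p = 0.054).

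Of 6 tested DNA damage response genes, 1 rose and 3 fell, with 66.7% called beside 56.6% of all tested genes. SMR4, an inhibitor of cell cycle kinases, had 0.458 and 0.205 CPM at 6 dpg and 1.47 and 1.01 CPM at 2 dpg (log2 fold change -1.86 ± 0.47, edgeR adjusted p = 0.00893). TSO2, a subunit of ribonucleotide reductase, had 21.2 and 19.4 CPM at 6 dpg and 51.7 and 42.1 CPM at 2 dpg (log2 fold change -1.21 ± 0.14, edgeR adjusted p = 0.000156). Both were lower in each 6 dpg library. SMR5, another inhibitor of this kind, had 4.37 and 4.09 CPM at 6 dpg and 1.52 and 1.96 CPM at 2 dpg (log2 fold change 1.29 ± 0.24, edgeR adjusted p = 0.00187). The SMR4 call was lost without 6 dpg replicate 2, at -1.43, and without 2 dpg replicate 1, at -1.54, and its value was -2.58 without 6 dpg replicate 1.

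Of 10 tested xylem differentiation genes, 5 fell, none rose and 5 were not called, a share called of 50.0% beside 56.6% of all tested genes. RNS3, a ribonuclease of dying xylem, had 5.78 and 4.45 CPM at 6 dpg and 16 and 11.0 CPM at 2 dpg (log2 fold change -1.40 ± 0.22, edgeR adjusted p = 0.000764). XCP1, a vessel protease and a direct target of the vessel NACs, had 13.4 and 11.9 CPM at 6 dpg and 30.2 and 24.4 CPM at 2 dpg (log2 fold change -1.11 ± 0.15, edgeR adjusted p = 0.000306). Both were lower in each 6 dpg library than in each 2 dpg library. Of 4 root cap genes, RCPG, a root cap polygalacturonase, fell and the others were not called. Called genes made up 25.0% of them, beside 56.6% of all tested genes. RCPG had 2.12 and 2.30 CPM at 6 dpg and 6.55 and 5.48 CPM at 2 dpg (log2 fold change -1.45 ± 0.21, edgeR adjusted p = 0.000536).

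Of 3 phloem genes, 1 rose and 1 fell, a share called of 66.7% beside 56.6% of all tested genes. APL, a master factor of phloem identity, had 14.5 and 15.0 CPM at 6 dpg and 7.62 and 7.69 CPM at 2 dpg (log2 fold change 0.94 ± 0.14, edgeR adjusted p = 0.000524). SEOR1, a sieve element protein, had 13.4 and 18.8 CPM at 6 dpg and 24.6 and 26.9 CPM at 2 dpg (log2 fold change -0.69 ± 0.17, edgeR adjusted p = 0.00739). APL was higher in each older library, and SEOR1 was lower, a call lost without 6 dpg replicate 1, at -0.45, and under scaling on ribosomal protein genes, at -0.39. Of 5 chlorophyll breakdown genes, which senescence NACs including ANAC046 control, 2 rose and 1 fell. NYC1, a chlorophyll b reductase, had 81.8 and 84.9 CPM at 6 dpg and 53.1 and 58.3 CPM at 2 dpg (log2 fold change 0.58 ± 0.12, edgeR adjusted p = 0.00269). ACD2, which breaks down a later product, had 6.57 and 7.11 CPM at 6 dpg and 15.5 CPM in both 2 dpg libraries (log2 fold change -1.18 ± 0.14, edgeR adjusted p = 0.000179).

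**Figure D4:**
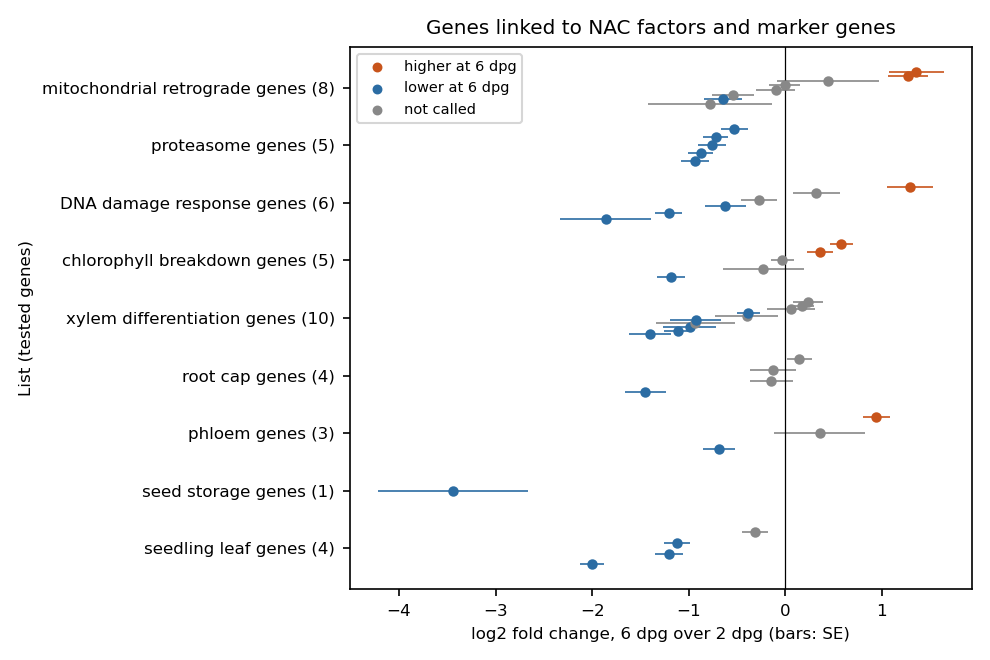
Log2 fold change, 6 dpg over 2 dpg, with SE as bars, of the 46 tested genes outside the family on 9 lists of genes downstream of NAC factors or marking cell types, with the number tested beside each list. All 5 proteasome genes lie below 0, while the mitochondrial, chlorophyll breakdown and phloem lists hold genes on both sides of it.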

How the data were processed

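Whole Col-0 seedlings of 6 and 2 dpg were sequenced, 2 libraries each. The NEBNext Ultra kit, used on TRIzol-extracted RNA per the labels' protocols, does not mark strand. The submitters' processing notes name DESeq 1.18.0, HTSeq 0.6.1, TopHat2 2.0.12, Bowtie2 2.2.3 and CASAVA 1.8. For the genome build, the sources used here give no name. The deposited table gives a read count per gene and library, not normalized, and the authors' FPKM, p-value and adjusted p-value. Columns of the authors' means headed with other days were not used.

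Library totals were recovered from deposited counts, FPKM and gene length, since the table as held has 79.9 to 81.0% of the reads. CPM use these totals times TMM factors. Ages were compared over all genes with edgeR 4.0.16 in R 4.3.3 (filterByExpr, minimum count 10, quasi-likelihood test, no covariate beside age). The filter removed 10624 genes. SE is the absolute log2 fold change over the square root of F. The biological coefficient of variation was 11.0%, and chi-square per degree of freedom between libraries of an age was 6.01 (6 dpg) and 16.5 (2 dpg), above what copies of 1 library would give. On simulated counts for 16005 genes of this comparison, 81% of genes changed by a log2 of 1 and 95% of those changed by 2 were called, with 10 false calls among 15806 others. Changes were planted in 100 genes of each size, far fewer than the 9153 called in the data, and counts were drawn with the fitted dispersions. These rates cover genes of all levels and do not describe members with few reads. Floors cover counting error only.

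The members and lists were chosen with earlier results of these data known. Named were all members on role lists, the other called members with the 5 largest rises and falls, and up to 2 called genes per direction of the other lists. Sequences, symbols and coordinates come from RefSeq TAIR10.1. Alternatives included DESeq2 1.42.0, other scalings and filters, a replicate block and leaving out each library.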

Additional observations from a re-analysis of the deposited data

How the results depend on the processing

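Across the 12 alternatives 14 to 21 members rose and 5 to 8 fell. Calls in every alternative were made for 12 members that rose (ANAC014, NAC1, ANAC038, ANAC041, NAC052, ANAC055, NARS1, NAC058, ANAC074, NTL9, ANAC080 and ANAC082) and 3 that fell (ANAC046, ANAC047 and ANAC057). Leaving out 1 library at a time gave 14 to 17 members higher and 5 to 8 lower, a member median between 0.34 and 0.37, 5 to 6 genes of the other lists higher and 17 to 22 lower, and 6951 to 9497 called genes in all. Scaling on 172 ribosomal protein genes shifted the median of all genes to 0.30 and that of the members to 0.66, left 5 members lower and 12 genes of the other lists lower, and ended the calls of ANAC032, SND3 and NAC045. Without the low-count filter the median of all genes was 0.13. Length-adjusted offsets gave a member median of 0.41.

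Signs turned for genes that were not called: ANAC017 was at -0.023 under length-adjusted offsets, NARS2 at 0.10 and AOX1A at 0.22 under ribosomal protein scaling, and, leaving out 1 library at a time, NARS2 between -0.65 and 0.20, AT3G12977 between -0.30 and 0.80 and AOX1A between -0.45 and 0.20. The causes were not tested. With the replicate number as a block, 18 members rose and 7 fell, and NAC050 and NAC045 were lost. The deviations of same-numbered libraries correlated at -0.00976 (Pearson, tested genes). This shows no common deviation, but it cannot tell whether same-numbered libraries were handled together. The DESeq2 Wald test called 16 members higher and 7 lower. Depth limits the members under about 1 CPM, among them NAC045, ANAC036 and ANAC044, which rest on few reads.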

Other observations

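Several members lie side by side in the genome. ANAC055 and NARS1 are neighbours on chromosome 3, 7235 bases apart, share 46.4% of their protein residues, and both rose. ANAC046 and ANAC047 are neighbours on the same chromosome, 6103 bases apart, share 37.6% of residues, and both fell. In a similar pair on chromosome 1, NARS2 was not called and ANAC019 was not tested. ANAC016 and ANAC017 lie 117 bases apart and share 74.5% of residues, with a longest shared transcript run of 44 bases, and neither was called. NAC050 and NAC052 lie 129 bases apart and both rose, with reads that may be split between them as said above. Of all tested genes 28.3% rose and 28.4% fell, and whether neighbours agree more often than other genes was not tested. The remaining neighbours differed in their calls. NAC052 rose and ANAC053, 14 bases away, was not called, while ANAC074 rose and SND2, 5935 bases away with 2 coding genes between them, was not called.

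The 2 libraries of 6 dpg differed from each other in some stress genes, which were picked after their values were seen. Replicates 1 and 2 of 6 dpg had 0.915 and 3.17 CPM of JUB1, 1.66 and 7.01 CPM of UPOX and 17.8 and 30.5 CPM of UGT74E2. At 2 dpg the replicates had 0.451 and 0.452 CPM of JUB1, 2.74 and 3.52 CPM of UPOX and 37.1 and 32.7 CPM of UGT74E2. ANAC019 had 3 and 14 reads in the same 6 dpg libraries and 9 and 8 reads at 2 dpg.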
